A study of Mus musculus with 22 samples.

Results

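Genes for protein folding in the endoplasmic reticulum (ER) and for the heat-shock response were followed by RNA sequencing in macrophages given lipopolysaccharide (LPS, a bacterial ligand of Toll-like receptor 4), interleukin-10 (IL-10) or both. The genes were chosen by symbol and joined between the tables by Ensembl identifier, 21 for the ER and 13 for the cytosolic and mitochondrial heat-shock proteins, in all 34 of 38293 genes listed. All 34 were found. The macrophages were grown from the marrow of C57BL/6 mice lacking Il10 (Il10-/-, 6 to 12 weeks old) for 7 to 8 days in medium with 30% L929 supernatant, a source of the macrophage growth factor, and 10% fetal calf serum. Every group, controls included, carries this deletion, and IL-10 was given as recombinant protein at 100 ng per ml. LPS was also given at 100 ng per ml. An earlier table held 8 libraries taken at 3 h (control, LPS, IL-10 and both together), and a later table held 14 libraries (control, and LPS, IL-10 or both at 6 h and at 12 h), with 2 libraries in each of the 11 groups. The harvest time of the later control was not given, and the 6 h and 12 h comparisons share it. The labels do not say whether replicate libraries came from separate cultures or animals, so the p-values measure only the spread between these libraries.

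Cells fold new proteins in separate compartments, and each compartment has its own chaperones. In the ER, where secreted and membrane proteins are made, BiP, the product of Hspa5, binds unfolded chains. When they build up, the sensors IRE1 (Ern1) and ATF6 and the transcription factor XBP1 raise the genes for chaperones, disulfide isomerases and the degradation machinery that returns misfolded proteins to the cytosol. In the cytosol, the heat-shock factor HSF1 raises HSP70 and HSP90 chaperones and their J-domain partners. Macrophages given LPS are known to switch to the secretion of cytokines, and IL-10 is known to restrain that programme.

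Values are read counts divided by the authors' size factor for each library, called normalized reads here. Changes were tested with limma on log2(value + 1) over all groups of a table and are given as log2 change ± SE. A gene was called at a Benjamini-Hochberg adjusted p of at most 0.05 over all genes tested, 12338 at 3 h and 12817 later. At 3 h 33 of the 34 genes had enough reads to be tested (Hspb1 had not), and all 34 were tested later. The libraries held 9337222 to 31772075 reads. The normalized values of a library summed to 14632292 and 16377752 in the later controls and to 32877731 and 35469303 with LPS at 6 h. The direction of moderate LPS changes therefore depended on the scale, and called changes that turned are given below. When every library was scaled to the same total, the median log2 change of all genes with LPS was -0.56 at 3 h, -1.16 at 6 h and -0.75 at 12 h, against 0.03, -0.04 and -0.02 with the authors' factors. Calls below, and their absence, refer to the authors' scale unless stated. At equal totals some genes without such a call were called lower at 3 h. Among ER genes these included Atf6 (-0.74), Hsp90b1 (-0.46), Canx (-0.53), Hyou1 (-0.47), Creld2 (-0.49), Dnajb9 (-1.04) and P4hb (-0.39). All 8 macrophage markers exceeded 100 normalized reads in every library. Il10 itself gave 95.3 to 1576 normalized reads at 3 h and 194.8 to 1456 later, and since the labels do not say which part of the gene was deleted, this does not check the genotype. Of 6 B and plasma cell markers 5 stayed under 100 in every library, with sums of 484.7 to 822.3 at 3 h and 95.1 to 700.9 later, and their part in the results was not tested. Of 3 fibroblast markers, Col1a1 and Col3a1 were at 0 to 1.95 normalized reads in every library, while Dcn had 0 to 3.72 outside the later LPS groups, 84.6 and 124.0 with LPS at 6 h and 139.6 and 179.0 at 12 h, and 55.8 and 55.6 and then 84.6 and 73.4 with both agents.

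A minority of the promoters of either set carried a full match to an element searched, and the elements found differed between the sets. The sequences with full matches are shown here because they are the binding elements by which both responses are usually defined. RefSeq windows of 250 bases before the annotated start (GRCm38.p6) were matched to 27 of the 34 genes, 18 of them ER genes and 9 of them heat-shock genes. The ER stress response element (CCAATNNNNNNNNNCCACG on either strand), which ATF6 is known to bind together with NF-Y, was in the windows of 7 of the 18 ER genes, in those of 0 of the 9 heat-shock genes and in 0.113% of all 32851 windows. Each line gives the gene's own strand with 10 bases on either side, with the CCAAT and CCACG blocks (or their reverse complements) in capitals.
Hspa5 (chr2:34772015-34772053, plus strand): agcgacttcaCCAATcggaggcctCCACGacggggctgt
Hsp90b1 (chr10:86705628-86705666, minus strand): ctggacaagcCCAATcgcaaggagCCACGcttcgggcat
Hsp90b1 (chr10:86705523-86705561, minus strand): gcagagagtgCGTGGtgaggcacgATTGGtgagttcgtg
Canx (chr11:50325790-50325828, minus strand): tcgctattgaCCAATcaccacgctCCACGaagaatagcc
Syvn1 (chr19:6046522-6046560, plus strand): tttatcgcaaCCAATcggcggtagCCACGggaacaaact
Pdia6 (chr12:17266481-17266519, plus strand): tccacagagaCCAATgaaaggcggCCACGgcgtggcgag
Dnajc3 (chr14:118937817-118937855, plus strand): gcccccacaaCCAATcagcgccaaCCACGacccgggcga
Creld2 (chr15:88819510-88819548, plus strand): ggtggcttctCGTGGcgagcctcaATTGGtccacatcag

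The whole 250-base window before the RefSeq start of Hspa5 (chr2:34771840-34772089, plus strand) is given because its RNA was the most abundant of the ER genes per kilobase, with the element in capitals. GENCODE M21 annotates this gene from base 34771970, so the element lies within the gene as annotated there.
Hspa5 window: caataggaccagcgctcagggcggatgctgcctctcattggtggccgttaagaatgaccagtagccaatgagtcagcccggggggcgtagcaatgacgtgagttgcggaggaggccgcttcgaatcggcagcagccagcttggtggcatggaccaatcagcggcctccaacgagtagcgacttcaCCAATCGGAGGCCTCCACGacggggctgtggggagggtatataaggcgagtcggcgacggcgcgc

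A heat-shock element of 3 inverted units (GAANNTTCNNGAA or its reverse complement) was in 0.466% of all windows. Among these genes it was only in a region shared by windows of Hspd1 and Hspe1, which lie on opposite strands. Overlapping matches in both orientations give more than 3 units there, marked by capitals. The stretch shown, with flanking bases, is chr1:55088053-55088082 on the strand of Hspe1, within the annotated Hspd1 gene.
Hspe1 element: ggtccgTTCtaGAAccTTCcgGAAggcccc

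The shorter form with 2 units (GAANNTTC or TTCNNGAA, which the longer form contains) was in 12.8% of all windows, in those of 7 of the 9 heat-shock genes (Hspa1a, Hspa1b, Hsph1, Hspb1, Hspd1, Hspe1 and Dnaja1) and in those of 0 of the 18 ER genes. A gene was counted if any of its windows matched, and the 9 heat-shock genes had 14 windows. The gene count is therefore not on the same basis as the share of windows. Windows of Hspd1 and Hspe1 also share a region. The XBP1 element TGACGTGG was in 0.563% of all windows and in none of these genes' windows. A match is a description of letters and not a shown binding site. The windows of Hspa1a and Hspa1b, both on the minus strand of chromosome 17, differed at 3 of 250 bases (98.8% identical), shown in capitals.
Hspa1a (chr17:34972157-34972406): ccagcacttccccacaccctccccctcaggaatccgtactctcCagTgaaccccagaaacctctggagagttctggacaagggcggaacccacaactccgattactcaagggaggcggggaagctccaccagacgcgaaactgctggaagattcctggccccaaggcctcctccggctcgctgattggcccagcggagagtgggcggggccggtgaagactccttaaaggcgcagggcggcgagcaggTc
Hspa1b (chr17:34959239-34959488): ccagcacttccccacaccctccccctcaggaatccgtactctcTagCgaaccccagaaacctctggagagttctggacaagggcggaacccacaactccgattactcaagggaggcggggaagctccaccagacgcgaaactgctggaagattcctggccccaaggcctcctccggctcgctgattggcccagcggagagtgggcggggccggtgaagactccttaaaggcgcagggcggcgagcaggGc

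Of the 50-base words of the longest Hspa1b transcript, 62.3% also occur in Hspa1a, so the division of reads between the copies is uncertain and their sum is given as well.

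LPS changed genes of both sets at every time on the authors' scale. Of the 21 ER genes, calls at 3 h were 8 upward and 1 downward, at 6 h 10 upward and 2 downward, and at 12 h 8 upward and 2 downward. Among the heat-shock genes calls at 3 h were 4 upward and 1 downward of 12 tested, at 6 h 6 upward and 2 downward of 13, and at 12 h 10 upward and 0 downward of 13. Over all genes 27.6% were called higher and 25.9% lower at 3 h, 28.4% and 31.3% at 6 h, and 23.7% and 23.8% at 12 h. On the authors' scale the upward ER counts are somewhat above the share of all genes at each time, and the downward ones are below it. The 10 of 13 heat-shock genes at 12 h lie furthest above. The later heat-shock counts include Hspb1, which was tested only because of its LPS 12 h libraries. With equal library totals the ER counts became 1 higher and 17 lower at 3 h, 1 and 12 at 6 h, and 0 and 10 at 12 h. The heat-shock counts became 1 higher and 6 lower, 4 and 8, and 6 and 3 at these times. The share of all genes called at equal totals was not counted, so these counts have no such share beside them. Median log2 changes there were -0.46, -0.48 and -0.43 over ER genes and -0.48, -0.59 and 0.35 over heat-shock genes. Those over all genes were lower, at -0.56, -1.16 and -0.75.

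**Figure D1:**
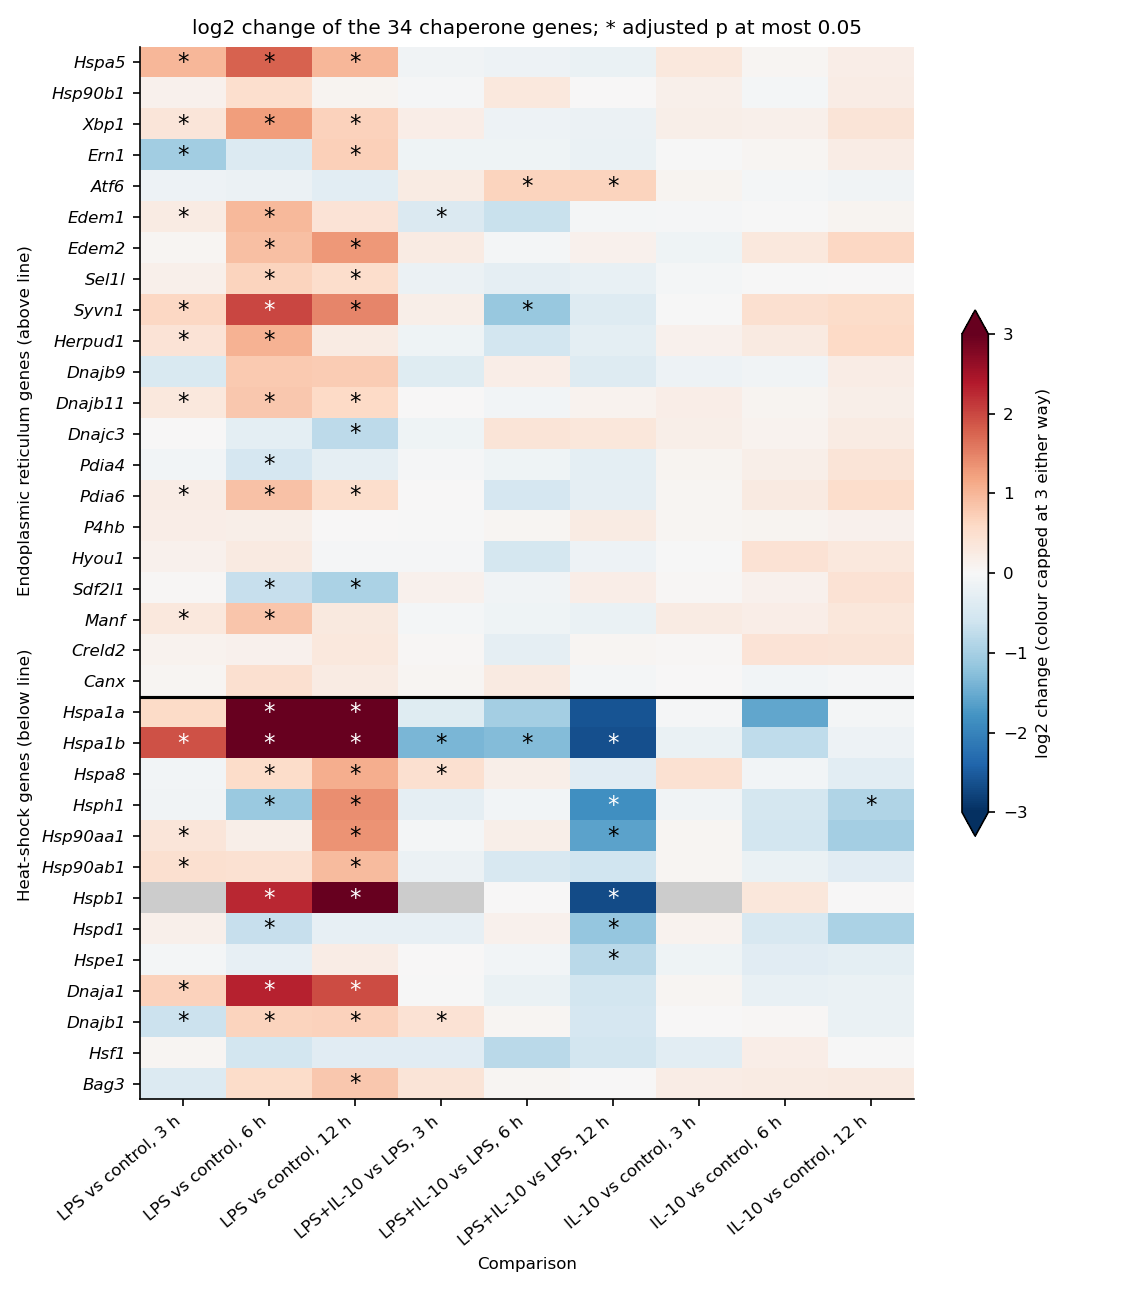
Colour gives the log2 change of each of the 34 genes (rows, ER genes above the line and heat-shock genes below) in 9 comparisons (columns), with an asterisk where the adjusted p was at most 0.05 and grey where Hspb1 was not tested. The LPS columns hold most asterisks on the authors' scale, with many ER directions reversing at equal library totals, and the columns of IL-10 without LPS hold 1 (Hsph1 at 12 h).

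Among the ER sensors and factors, Xbp1, which encodes the factor that IRE1 activates by splicing, rose with LPS at each time on the authors' scale. Its control libraries had 2847 and 2784 normalized reads at 3 h and 2478 and 3537 later. With LPS it had 3576 and 3643 at 3 h, 6765 and 7383 at 6 h and 4069.7 and 5621 at 12 h. LPS libraries lay above their controls at all 3 times without overlap, highest at 6 h. The log2 changes were 0.36 ± 0.08, 1.26 ± 0.22 and 0.69 ± 0.22 (adjusted p = 0.0042, 0.00061 and 0.025), while at equal library totals they were -0.23, 0.11 and -0.05. The 12 h call was lost without the first later control or without the second LPS library (highest adjusted p = 0.20). The spliced form, which marks IRE1 activity, cannot be seen in counts per gene.

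Ern1, which encodes IRE1, moved down and then up. It had 918 and 998.5 normalized reads in the 3 h controls and 441 and 490.3 with LPS, a log2 change of -1.04 ± 0.11 (adjusted p = 3.4e-05). This fall kept its sign and call at equal totals (-1.63) and in all 8 fits that left out 1 library. Later it had 979 and 999 in controls, 757 and 741 with LPS at 6 h and 1851 and 1426.5 at 12 h. The 12 h libraries were above both other groups, and from 6 h to 12 h of LPS the gene rose by 1.12 ± 0.18 (adjusted p = 0.0028). Against control the 12 h change was 0.72 ± 0.18 (adjusted p = 0.0068), which ended at equal totals (-0.02) and was lost without the first LPS 12 h library (adjusted p = 0.051). Atf6, the gene of the other sensor, had no call against control at any time on the authors' scale, with log2 changes of -0.15, -0.18 and -0.32.

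Hspa5, which encodes BiP, the main HSP70 of the ER, had 22432 and 24587 normalized reads in the 3 h controls and 48100.5 and 45256 with LPS, 0.99 ± 0.11 higher on the log2 scale (adjusted p = 5e-05). Later it had 18639.5 and 30841 in controls, 73687 and 89404 with LPS at 6 h and 37499 and 60542 at 12 h. All LPS libraries exceeded their controls, though the first LPS 12 h library was only modestly above the second control. The log2 change was 1.76 ± 0.33 after 6 h (adjusted p = 0.00082) and 0.99 ± 0.33 after 12 h (adjusted p = 0.028). At equal library totals the changes remained positive (0.40, 0.62 and 0.25), but that at 12 h was no longer called. Quantile normalization gave 0.06, -0.09 and -0.25. The 12 h call was lost without the first later control or the second LPS library (highest adjusted p = 0.21).

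Hsp90b1, the ER form of HSP90, had no call with LPS on the authors' scale, with log2 changes of 0.13, 0.51 and 0.09. Canx (calnexin, the lectin chaperone of glycoproteins), Hyou1 (the exchange factor of BiP) and Creld2 likewise had no LPS call at any time. The J-domain partners of BiP divided. Dnajb11 was called higher at each time (0.32, 0.80 and 0.60), all negative at equal totals. Dnajc3, the co-chaperone p58IPK, was called lower at 12 h, at 1602 and 1689 normalized reads against 2363 and 3426 (-0.79 ± 0.21, adjusted p = 0.0092, lost without the second control at 0.059). Dnajb9 (ERdj4, a known XBP1 target) was not called on the authors' scale, at -0.45, 0.79 and 0.77.

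Sdf2l1, whose product sits in a complex with BiP and Dnajb11, fell. It had 1516 and 1114 normalized reads in the later controls, 815 and 801 with LPS at 6 h and 646 and 687 at 12 h. All 4 LPS libraries lay below both controls, with changes of -0.68 ± 0.18 (adjusted p = 0.0063) and -0.96 ± 0.18 (adjusted p = 0.0014) that kept their sign on every scale tried. Manf, a secreted ER-resident factor, was called higher at 3 h (0.32) and 6 h (0.84) on the authors' scale and was negative at equal totals at both times.

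The disulfide isomerases differed in direction. Pdia6 was called higher at 0.23, 0.88 and 0.53, negative at equal totals at each time. Pdia4 was called lower at 6 h, with 2040.5 and 2265 normalized reads against 2819 and 3329.6 in the controls (-0.51 ± 0.15, adjusted p = 0.013). That call was lost without the second control or the first LPS 6 h library (highest adjusted p = 0.093). P4hb, the canonical protein disulfide isomerase, had no call on the authors' scale, at 0.20, 0.18 and 0.01.

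Among the genes of ER-associated degradation, Syvn1 encodes HRD1, the ubiquitin ligase of this pathway. It had 341.5 and 465 normalized reads in the 3 h controls and 582 and 652 with LPS. Later it had 754 and 348 in controls, 2364 and 1783 with LPS at 6 h and 1190.5 and 1682 at 12 h. The groups did not overlap, although the later controls lay more than 1 log2 unit apart. Its changes were 0.63 ± 0.15, 2.00 ± 0.35 and 1.46 ± 0.35 (adjusted p = 0.0058, 0.00061 and 0.0061). They were positive at equal totals too (0.04, 0.86 and 0.73) but no longer called there. The 3 h call was lost without the second LPS library (adjusted p = 0.055), and the 12 h call without the second LPS library (adjusted p = 0.061). Syvn1 shares 91 exon bases with Mrpl49 on the other strand, and without a stated strand these reads cannot be told apart.

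Edem2, a mannosidase that marks glycoproteins for degradation, had 745.5 and 508 normalized reads in later controls, 1193 and 1109.5 with LPS at 6 h and 1472 and 1568 at 12 h. The groups did not overlap. The 12 h change was 1.30 ± 0.21 (adjusted p = 0.00073), and at equal totals it was 0.57 and no longer called. The 6 h change of 0.90 ± 0.21 (adjusted p = 0.0039) became -0.24 at equal totals. Herpud1, a membrane protein of the HRD1 complex, had 937 and 879 in controls, 1908 and 1819 with LPS at 6 h and 885 and 1289.5 at 12 h. It was above control at 6 h (1.04 ± 0.20, adjusted p = 0.00092; -0.10 at equal totals), and 1 of its 12 h libraries lay within the control range. Sel1l, the scaffold of HRD1, was called at 6 h (0.66) and 12 h (0.53), and Edem1 at 3 h (0.25) and 6 h (0.97), each negative at equal totals.

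In log2 change with LPS, ER genes with a full match to the ER stress response element overlapped ER genes without such a match. The latter only lacked a full match in the windows searched, and other forms or places of the element were not searched. At 6 h of LPS the 7 holders had a median log2 change of 0.51 (range -0.29 to 2.00) and the 11 other matched ER genes had 0.79 (range -0.68 to 1.26). At 3 h the medians were 0.13 and 0.16, and at 12 h 0.31 and 0.53. These medians are descriptions without a test, so whether the element made a difference was not decided.

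The smaller calls at 3 h were fragile. Those of Edem1, Dnajb11, Pdia6, Manf and Hsp90aa1 were each lost in at least 4 of the 8 fits that left out 1 library (highest adjusted p = 0.16, 0.11, 0.16, 0.16 and 0.19), and that of Herpud1 without either LPS library (0.055). At 6 h the call of Manf was lost without the first control (0.052). At 12 h those of Sel1l, Dnajb11 and Pdia6 were lost without the second LPS library (0.15, 0.11 and 0.16), and that of Sel1l also without the first control and that of Pdia6 without the second.

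**Figure D2:**
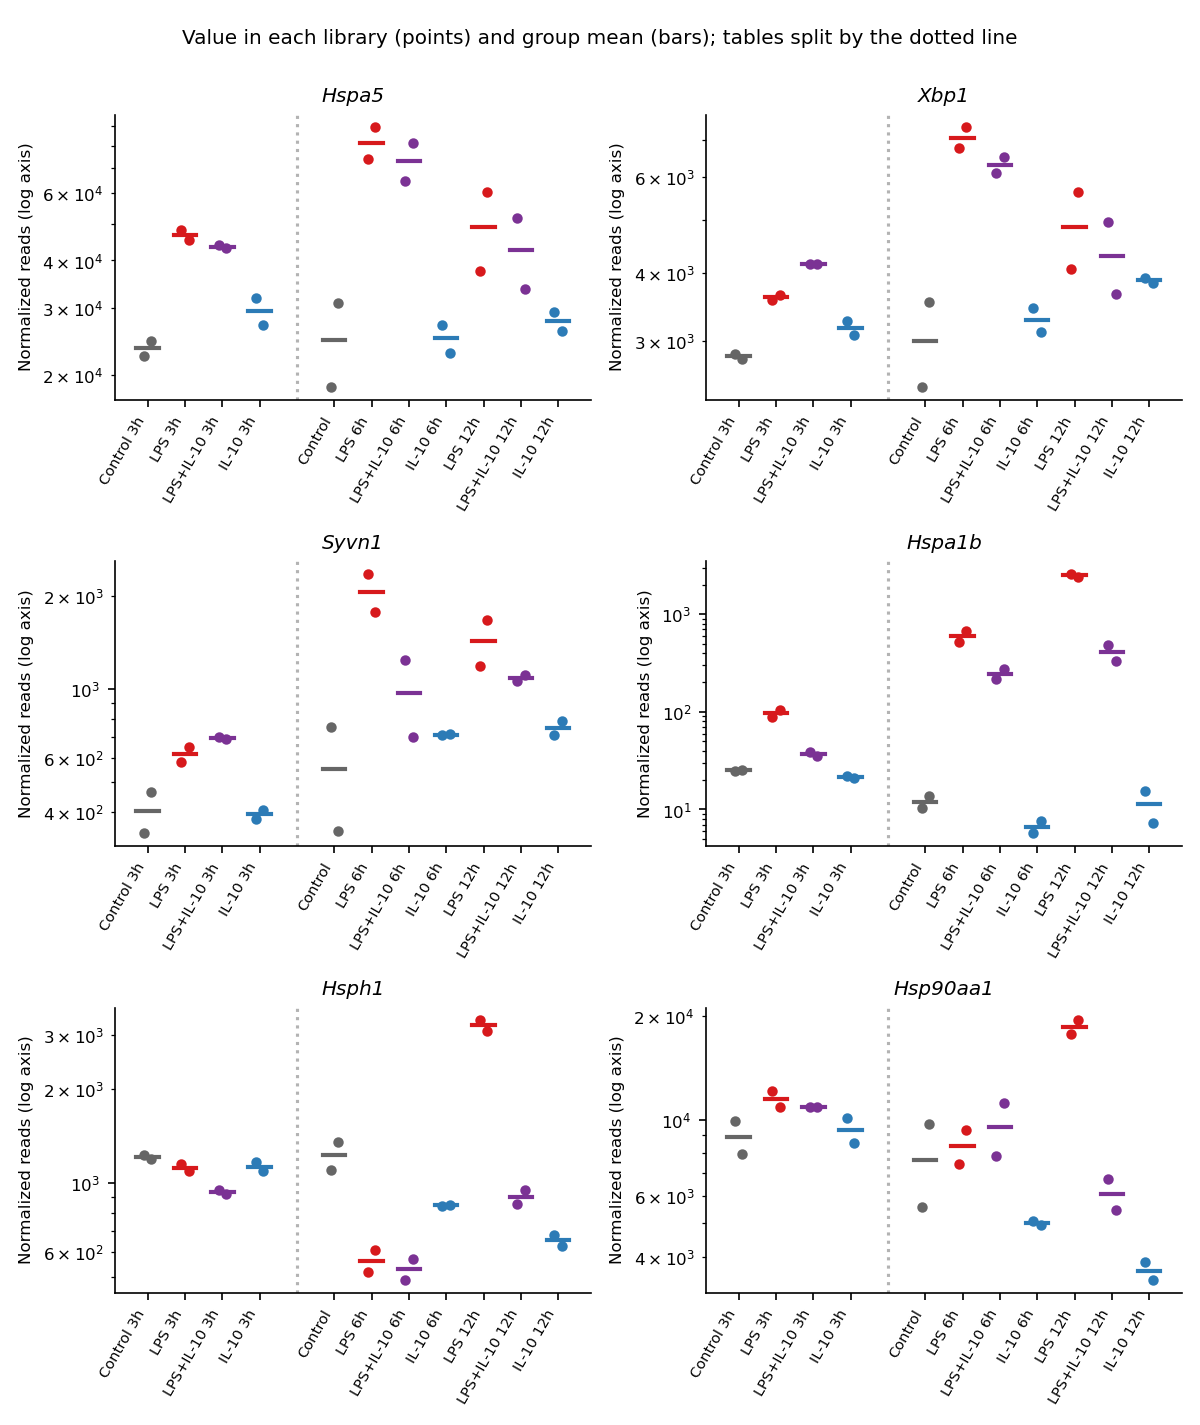
Normalized reads (log axis) of 6 genes in every library are shown as points with group means as bars, the 3 h table left of the dotted line and the 6 h and 12 h table right of it. Hspa5 and Xbp1 are highest at 6 h of LPS, with or without IL-10, on the authors' scale, whereas Hspa1b, Hsph1 and Hsp90aa1 are highest at 12 h of LPS alone.

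Hspa1a and Hspa1b encode the inducible cytosolic HSP70. Hspa1b had 25.0 and 25.2 normalized reads in the 3 h controls and 89.4 and 105 with LPS (1.91 ± 0.22, adjusted p = 8e-05). In the later table it had 10.3 and 13.6 in controls, 520.4 and 680.4 with LPS at 6 h and 2585.5 and 2421 at 12 h. The groups were far apart, and the 12 h libraries stood about 4-fold above those at 6 h (2.07 ± 0.34, adjusted p = 0.0035). Against control Hspa1b rose by 5.53 ± 0.34 (adjusted p = 1.2e-06) and then by 7.60 ± 0.34 (adjusted p = 4.4e-07). At equal totals the increases were 1.33, 4.43 and 6.90.

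Hspa1a had 31.6 and 19.6 normalized reads in the 3 h controls and 36.0 and 39.8 with LPS, a difference of 0.58 ± 0.29 that was not called (adjusted p = 0.12). Later it had 8.43 and 13.6 in controls, 768 and 907 with LPS at 6 h and 2699.9 and 2965 at 12 h. LPS libraries were again clear of the controls, with log2 changes of 6.15 ± 0.67 and 7.91 ± 0.67 (adjusted p = 2.5e-05 and 9.9e-06). The copies together had 18.7 and 27.3 normalized reads in the later controls, 1288 and 1588 at 6 h and 5285 and 5386 at 12 h. The constitutive HSP70 gene Hspa8 had 8559.9 and 10451 in the 3 h controls and 8807 and 9103 with LPS, and these overlapped. Later it had 16329.9 and 16852 in controls, 23459.9 and 25536 at 6 h and 32765 and 37777.5 at 12 h, both clear of control. Its changes were 0.56 ± 0.16 (adjusted p = 0.012) and 1.08 ± 0.16 (adjusted p = 0.00044), but -0.58 and 0.35 at equal totals and -1.10 and -0.12 with quantile normalization. The 6 h call was lost without the second LPS library (adjusted p = 0.078).

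Hsph1, the large HSP110 that recharges HSP70 with nucleotide, moved in opposite directions at 6 h and 12 h. Its 3 h libraries had 1234 and 1194 normalized reads in controls and 1151 and 1093 with LPS, without a call. The later controls had 1104 and 1360.2, LPS at 6 h had 518 and 609 and LPS at 12 h had 3333 and 3089. The 6 h libraries lay below control and the 12 h libraries above, with no overlap. The changes were -1.12 ± 0.17 (adjusted p = 0.00018) and 1.39 ± 0.17 (adjusted p = 9.7e-05), called in all 14 fits that left out 1 library, and both kept their sign at equal totals (-2.26 and 0.65). From 6 h to 12 h of LPS Hsph1 rose by 2.51 ± 0.17 (adjusted p = 3.2e-05).

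Among the HSP90 genes, Hsp90aa1 is the inducible and Hsp90ab1 the constitutive cytosolic form. Hsp90aa1 had 9876 and 7950.5 normalized reads in the 3 h controls and 12085 and 10846 with LPS. Later it had 5559.7 and 9690.1 in controls, 7427 and 9352 with LPS at 6 h and 17742.5 and 19402 at 12 h. At 6 h the LPS libraries lay within the control range, and at 12 h both were well above it. The 12 h change was 1.34 ± 0.27 (adjusted p = 0.0021; 0.60 at equal totals), and that from 6 h to 12 h was 1.15 ± 0.27 (adjusted p = 0.017). The last was lost without either LPS 6 h library or the first LPS 12 h library (highest adjusted p = 0.12). The 3 h change of 0.37 ± 0.12 was called (adjusted p = 0.031) but negative at equal totals. Hsp90ab1 was called higher at 3 h (0.49) and at 12 h (0.96), at -0.10 and 0.22 with equal totals and -0.45 and -0.26 with quantile normalization.

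Hspb1, the small heat-shock protein HSP27, was nearly silent outside LPS at 12 h. Both later controls had 0 reads, the LPS 6 h libraries had 4.34 and 3.26 normalized reads and the LPS 12 h libraries 57.8 and 55.9. Only the 12 h libraries were clearly expressed. With a floor of 3 reads put in place of the control count, expression was 50.9-fold higher at 12 h (adjusted p = 3.1e-05). At 6 h it was 3.33-fold higher, which rested on 4 reads (adjusted p = 0.0067, lost with a pseudocount of 5). The floor covers counting error of the controls only and not that of the LPS reads, so the 6 h value is not a lower bound.

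The J-domain partners of cytosolic HSP70 did not move together. Dnaja1 had 2297 and 1855.5 normalized reads in the 3 h controls and 3569.6 and 3103 with LPS. Later it had 1403 and 2662 in controls, 8337.5 and 10939.9 at 6 h and 5973 and 9317 at 12 h of LPS. Its LPS libraries were higher without overlap at all 3 times, by 0.69 ± 0.13, 2.30 ± 0.33 and 1.95 ± 0.33 (adjusted p = 0.0013, 0.00016 and 0.00092), and by 0.10, 1.16 and 1.21 at equal totals. Dnaja1 shares 608 exon bases with Smu1 on the other strand. Dnajb1, the J-protein of the heat-shock response, fell at 3 h (-0.65 ± 0.11, adjusted p = 0.0011) and was called higher at 6 h (0.66) and 12 h (0.68), though negative there at equal totals. Bag3, an exchange factor that links HSP70 to autophagy, was called higher at 12 h (0.81 ± 0.22, adjusted p = 0.011; 0.08 at equal totals), a call lost without the second control or the second LPS library (highest adjusted p = 0.070).

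Of the mitochondrial chaperonins, Hspd1 (HSP60) had 3429 and 5487 normalized reads in the later controls, 2419.9 and 3012 with LPS at 6 h and 3656 and 3645 at 12 h. It was lower at 6 h (-0.68 ± 0.23, adjusted p = 0.026), a call lost without the second control or the first LPS 6 h library (highest adjusted p = 0.20), and at 12 h its libraries lay between the controls. Its partner Hspe1 (HSP10) had no LPS call. Hsf1, the gene of the heat-shock factor, had 163 and 235 normalized reads in the 3 h controls and 205 and 200.3 with LPS. Later it had 384 and 198 in controls, 228 and 158 at 6 h and 224 and 208 at 12 h. These groups overlapped, and changes of 0.05, -0.54 and -0.35 were not called. HSF1 is known to be switched on at the protein level, which these counts do not show.

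**Figure D3:**
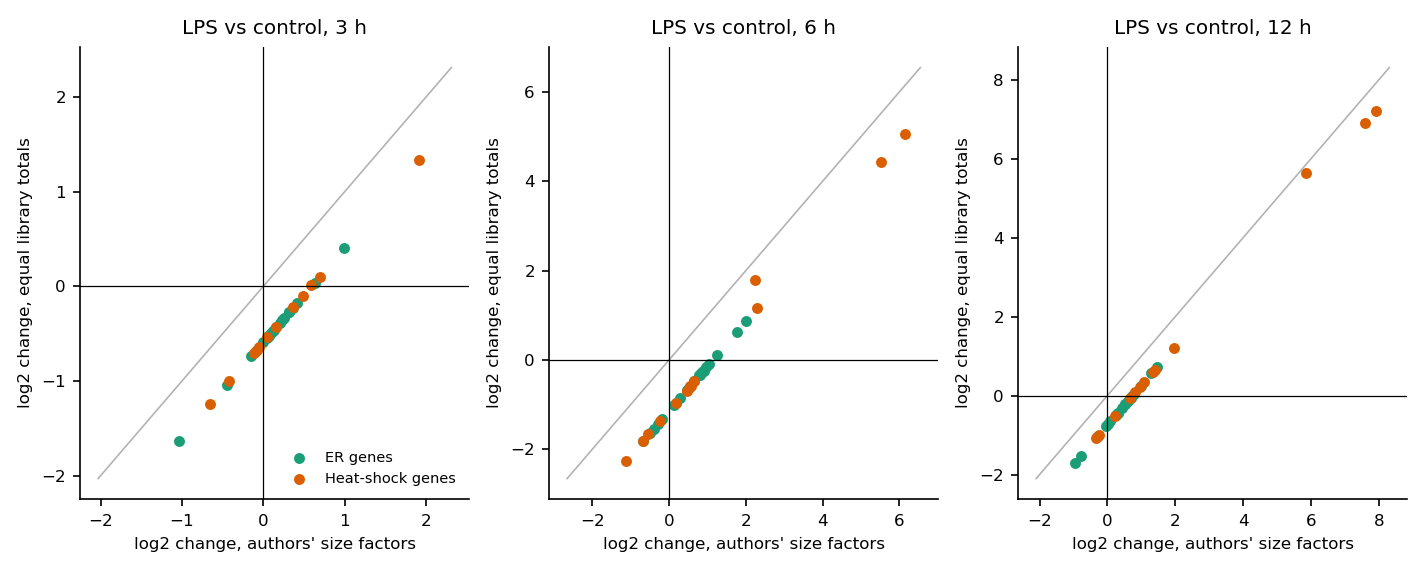
For LPS against control at 3 h, 6 h and 12 h, each point is 1 gene (ER green, heat-shock orange), with the log2 change from the authors' size factors on the horizontal axis and at equal library totals on the vertical axis. Points lie below the line of equality, and those between the axes in the lower right are called or positive on the authors' scale and negative at equal totals. Hspa1a and Hspa1b at 6 h and 12 h, with Hspb1, stay far above 0 on both.

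The balance of both sets within a library hardly depends on the scaling, which cancels apart from the pseudocount. It was taken as the mean log2(value + 1) of the 21 ER genes minus that of the 12 heat-shock genes tested in both tables. It was 1.56 and 1.51 in the later controls, 0.94 and 0.91 with LPS at 6 h, and -0.16 and -0.01 with LPS at 12 h. With IL-10 added to LPS it was 1.07 and 1.06 at 6 h and 0.92 and 1.01 at 12 h, and with IL-10 alone 2.19 and 1.87 at 6 h and 2.05 and 2.29 at 12 h. The 12 h LPS libraries were thus lowest of the later table, and those with IL-10 alone highest. At 3 h the controls had 1.39 and 1.36, LPS 1.24 and 1.27, IL-10 1.42 and 1.41, and both agents 1.35 and 1.36. Hspa1a and Hspa1b, which are near 0 reads in some libraries, set part of this order. Without them the controls had 0.27 and 0.28, LPS at 6 h had 0.61 and 0.61, now above control, LPS at 12 h still had the lowest values at -0.24 and -0.12, and both agents at 12 h had 0.56 and 0.57. IL-10 alone then had 0.65 and 0.56 at 6 h, no longer clear of LPS at 6 h, and 0.95 and 0.97 at 12 h. These differences are descriptions without a test.

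**Figure D4:**
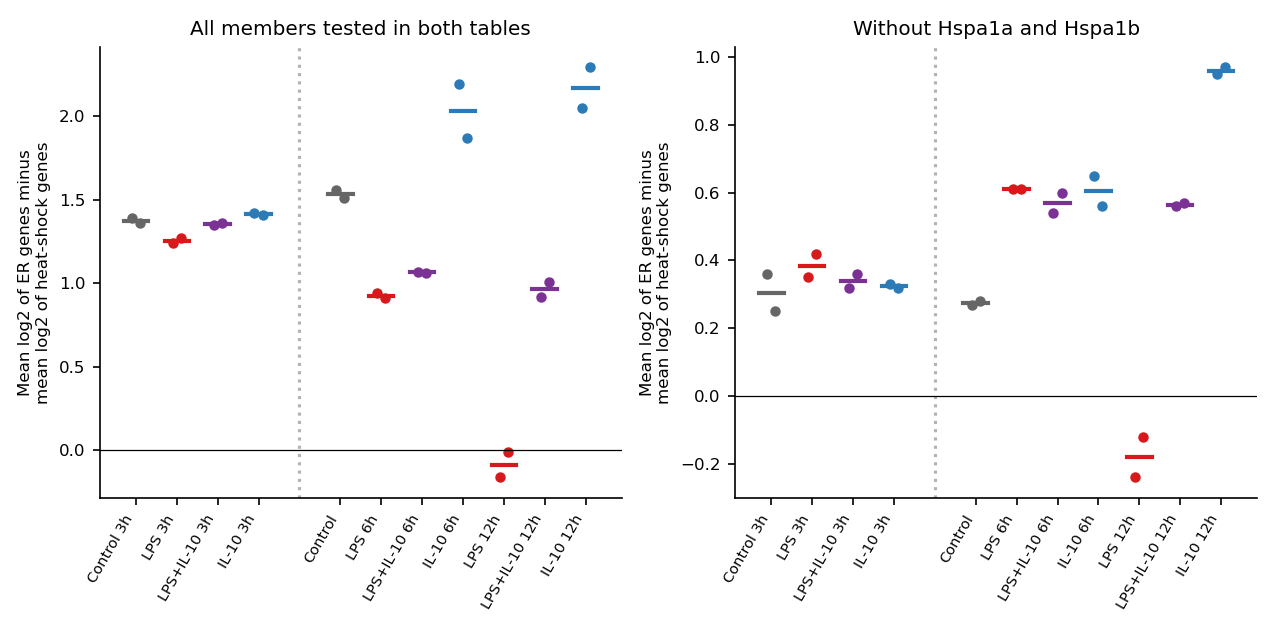
The vertical axis is the mean log2 level of the ER genes minus that of the heat-shock genes in each library (points, with group means as bars), with all members tested in both tables on the left and without Hspa1a and Hspa1b on the right. LPS at 12 h gives the lowest points in both panels, while LPS at 6 h lies below its control on the left and above it on the right.

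Adding IL-10 to LPS left most ER genes without a call and lowered heat-shock genes at 12 h. At 12 h 6 of 13 heat-shock genes were called lower and 0 higher, against 2.23% and 2.68% of all genes. The 6 include Hspb1, which was tested only because of its LPS 12 h libraries. Of 21 ER genes 1 was called higher and 0 lower. The median log2 change was -0.82 over the heat-shock genes, -0.16 over the ER genes and -0.06 over all genes. All 13 heat-shock genes had a change at or below 0 on the authors' scale, and all but Bag3 did at equal totals. At 6 h 1 of 13 heat-shock genes was called lower and 0 higher, and 1 of 21 ER genes was called in each direction, against 13.7% of all genes higher and 10% lower. At 3 h 2 heat-shock genes were called higher and 1 lower of 12, and 0 ER genes higher and 1 lower, against 4.68% and 4.92% of all genes. These comparisons use the same LPS libraries as those against control.

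Hspa1b was lower with IL-10 at each time. It had 39.2 and 35.0 normalized reads with both agents at 3 h, 216 and 273.5 at 6 h and 481 and 335 at 12 h. Each pair was below its LPS pair given above and still above control. The changes were -1.36 ± 0.22, -1.29 ± 0.34 and -2.64 ± 0.34 (adjusted p = 0.0042, 0.022 and 0.0024), the last called in all 14 fits that left out 1 library. The 3 h call was lost without the second library of either group (highest adjusted p = 0.062), and the 6 h call without any of the 4 libraries compared (highest 0.12) and at equal totals (0.053). Hspa1a had 566 and 385 with both agents at 12 h, below both LPS libraries, a change of -2.60 ± 0.67 that was not called (adjusted p = 0.051) although edgeR (0.010) and DESeq2 (5.5e-08) called it. The copies together had 1047 and 719.9 normalized reads with both agents at 12 h and 572.2 and 746.7 at 6 h.

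Hsph1 at 12 h had 859 and 947 normalized reads with both agents against 3333 and 3089 with LPS, far apart (-1.83 ± 0.17, adjusted p = 0.00038). This was called in all 14 fits that left out 1 library. At 6 h it had 489 and 571 with both agents, overlapping LPS alone (-0.09 ± 0.17, adjusted p = 0.72). The IL-10 effect at 12 h minus that at 6 h was -1.74 ± 0.24 (adjusted p = 0.01). This difference was lost without the first LPS 6 h library, the second 6 h library with both agents or the first such 12 h library (highest adjusted p = 0.059). It was the 1 member called in that test, with 0.889% of all genes called lower and 0.265% higher.

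Hsp90aa1 at 12 h had 6734 and 5468 normalized reads with both agents against 17742.5 and 19402 with LPS. The groups did not overlap, and the values with IL-10 lay near that of the lower later control (-1.61 ± 0.27, adjusted p = 0.0086). The call was lost without the second library of both agents (adjusted p = 0.11). At 6 h it had 7851 and 11203, overlapping LPS. The 12 h minus 6 h difference of -1.78 ± 0.38 was not called (adjusted p = 0.052).

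Hspd1 and Hspe1, neighbours that share 112 exon bases on opposite strands, were lower together at 12 h. Hspd1 had 1939 and 1398 normalized reads against 3656 and 3645 (-1.15 ± 0.23, adjusted p = 0.021). Hspe1 had 1139 and 882 against 1738 and 1798.5 (-0.82 ± 0.17, adjusted p = 0.02). In each the groups did not overlap, and each call was lost without either LPS library or the second library of both agents (highest adjusted p = 0.23 and 0.21). Hspb1 had 3.89 and 15.4 with both agents against 57.8 and 55.9 (-2.69 ± 0.59, adjusted p = 0.029). It was lower in both, but the change was -1.82 without the first library of both agents and -3.56 without the second, and the call was lost in 5 of 14 fits that left out 1 library (highest adjusted p = 0.090) and at equal totals (0.052).

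Hspa8 and Dnajb1 went the other way at 3 h. Hspa8 had 12693 and 12133 normalized reads with both agents against 8807 and 9103 with LPS (0.47 ± 0.10, adjusted p = 0.02), and Dnajb1 had 493 and 452 against 366 and 332 (0.44 ± 0.11, adjusted p = 0.043). Neither overlapped, and each call was lost without any 1 of the 4 libraries compared, that of Dnajb1 also without either IL-10 library (highest adjusted p = 0.20 and 0.31). The Hspa8 call was also lost with quantile normalization (adjusted p = 0.078), and that of Dnajb1 with quantile normalization (0.056), at equal totals (0.058) and with DESeq2 (0.079). With IL-10 and LPS Hspa8 had 28239.6 and 27159 at 6 h and 26692 and 28800.5 at 12 h, without a call. Hsf1 had 136 and 87.4 with both agents at 6 h, below LPS but not called (-0.80 ± 0.33, adjusted p = 0.098), and 135 and 157.5 at 12 h (-0.56, adjusted p = 0.39).

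On the ER side the 3 calls with IL-10 later on concerned Atf6 and Syvn1. Atf6 had 4706 and 5241 normalized reads with both agents at 6 h against 2984 and 3309 with LPS, and 4206 and 4925 against 2782 and 2938 at 12 h. It was higher with IL-10 at both times without overlap (0.66 ± 0.17 and 0.67 ± 0.17, adjusted p = 0.018 and 0.046). The 6 h call was lost without either LPS library or the second library of both agents (highest adjusted p = 0.13), and the 12 h call in 11 of 14 such fits (highest 0.37) and with a replicate block (0.056). Syvn1 had 1243 and 700.1 with both agents at 6 h against 2364 and 1783, lower without overlap (-1.14 ± 0.35, adjusted p = 0.04), a call lost in 9 of 14 such fits (highest adjusted p = 0.30), with edgeR (0.058), at equal totals (-0.82, adjusted p = 0.13) and with quantile normalization (-0.90, adjusted p = 0.10). Edem1 at 3 h had 6772 and 6655 against 9056 and 9073 (-0.43 ± 0.09, adjusted p = 0.015), lost without any 1 of the 4 libraries compared (highest 0.16).

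Hspa5 and Xbp1 showed no call with IL-10 in LPS. Hspa5 had 43979 and 43062 normalized reads with both agents at 3 h, 64846 and 81479 at 6 h and 51826 and 33636 at 12 h. The 6 h and 12 h values overlapped those of LPS alone, and the changes were -0.10 ± 0.11, -0.16 ± 0.33 and -0.19 ± 0.33 (adjusted p = 0.72, 0.74 and 0.83). Xbp1 had 4154 and 4147 at 3 h, 6101 and 6533 at 6 h and 4953 and 3655 at 12 h, with changes of 0.20 ± 0.08, -0.16 ± 0.22 and -0.17 ± 0.22. Whether IL-10 acted differently on ER and heat-shock genes as sets was not tested.

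**Figure D5:**
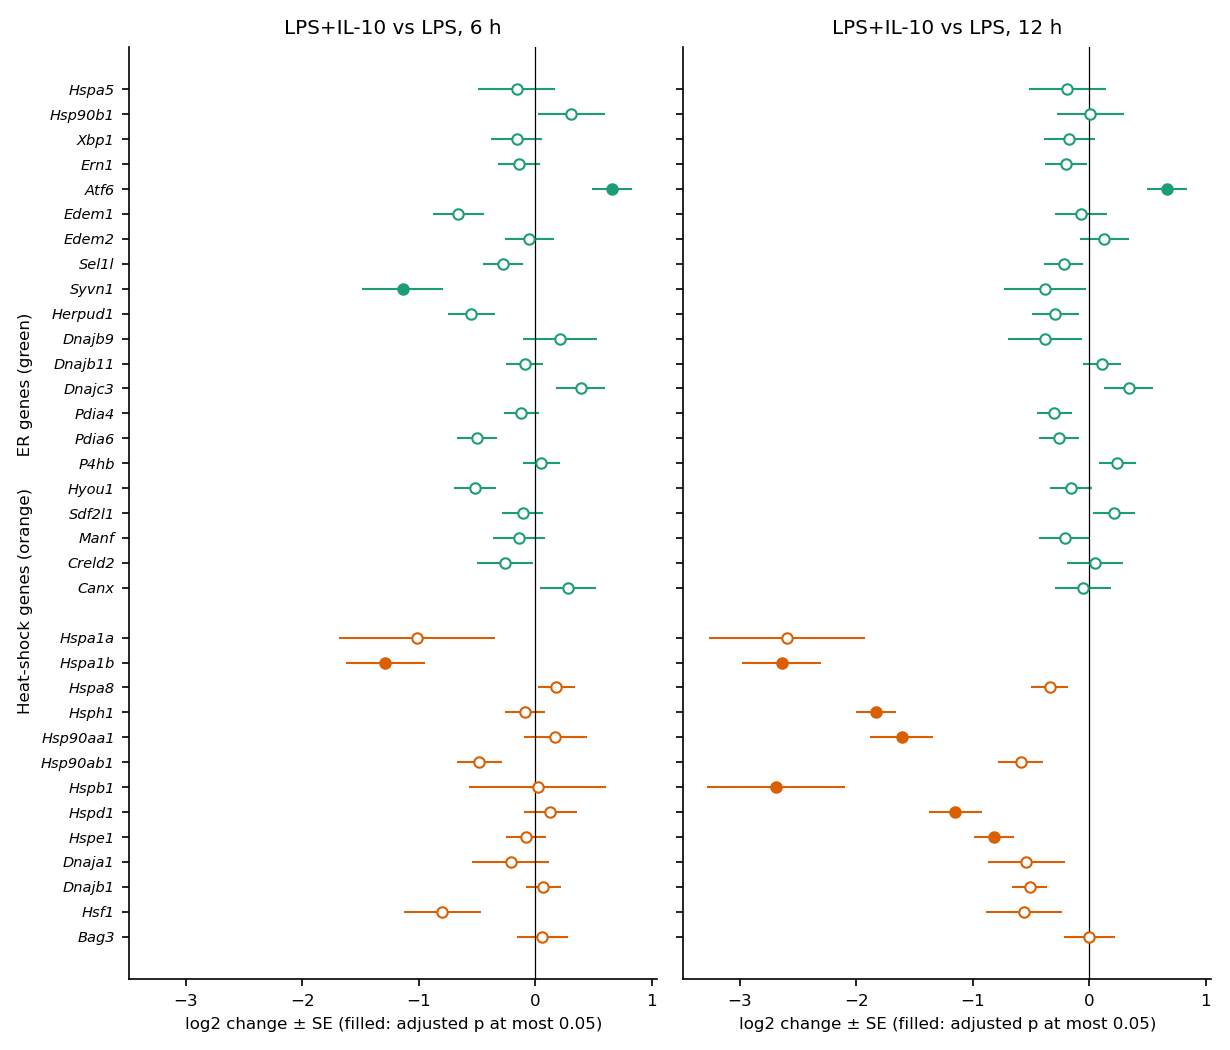
Points give the log2 change with its SE for LPS with IL-10 against LPS alone at 6 h (left) and 12 h (right), ER genes in green above and heat-shock genes in orange below, filled where the adjusted p was at most 0.05. At 12 h all heat-shock points lie at or left of 0, with 6 filled, and 1 ER point (Atf6) is filled.

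IL-10 without LPS changed few genes of any kind. Called higher and lower were 1.22% and 0.421% of all genes at 3 h, 0.0624% and 0% at 6 h and 1.01% and 0.546% at 12 h. Of the members 0 were called at 3 h, where 3 had an unadjusted p under 0.05, edgeR called 0 and DESeq2 called 1. The gene DESeq2 called was Hspa8, at 13182 and 12904 normalized reads with IL-10, above both controls (0.46 ± 0.10, limma adjusted p = 0.072, DESeq2 adjusted p = 0.0070). At 6 h 0 were called, with 4 at an unadjusted p under 0.05 and 0 by edgeR and by DESeq2. Shares of all genes for the unadjusted, edgeR and DESeq2 counts were not counted. At 12 h only Hsph1 was called, at 681 and 626.5 against 1104 and 1360.2 in controls (-0.91 ± 0.17, adjusted p = 0.023), lost in 5 of 14 fits that left out 1 library (highest 0.16) and at equal totals (0.057). Hsp90aa1 had 5087 and 4938 at 6 h and 3848 and 3428 at 12 h, below both controls but not called (-0.55 and -1.01, adjusted p = 0.96 and 0.096). At 12 h 19 of 21 ER genes had a positive change (median 0.24) and 1 of 13 heat-shock genes did (median -0.20) on the authors' scale, with a median of -0.01 over all genes.

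For the interaction of LPS and IL-10, 0 of these genes were called at any time by limma, with 1.47% and 1.32% of all genes called higher and lower at 3 h, 4.46% and 2.26% at 6 h and 0.148% and 0.234% at 12 h. The counts at an unadjusted p under 0.05 were 7, 5 and 9 at 3 h, 6 h and 12 h, edgeR called 0, 0 and 0, and DESeq2 called 0, 4 and 3. Shares of all genes for these counts were not counted. At 12 h all 13 heat-shock genes had a negative interaction, from -2.69 to -0.02 on the authors' scale, though that of Hspa8 was above 0 at equal totals. Most ER genes were negative too, with 3 of 21 positive. Medians were -0.52 over heat-shock genes, -0.39 over ER genes and -0.04 over all genes. These values share the same libraries, controls included.

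LPS at 12 h was also compared with LPS at 6 h. Hspa1b, Hsph1, Hsp90aa1 and Hspb1 were called higher at 12 h and no heat-shock gene was called lower, while of the ER genes Ern1 was called higher and Herpud1 lower (-0.80 ± 0.20, adjusted p = 0.022, lost without either LPS 6 h library or the first LPS 12 h library, highest 0.19). At equal totals the Herpud1 call was lost (-0.40, adjusted p = 0.10), as with quantile normalization (-0.58, adjusted p = 0.076), and 2 ER genes were called higher and 0 lower, with 9 heat-shock genes higher and 0 lower. On the authors' scale 11.1% of all genes were called higher and 4.67% lower. Hspb1 was tested only because it is high in the LPS 12 h libraries, so its call is not independent support. The share at equal totals was not counted, and the median change of all genes was 0.38 there, against -0.02 on the authors' scale. With both agents Ern1 (1.05 ± 0.18, adjusted p = 0.0042) and Hsph1 (0.77 ± 0.17, adjusted p = 0.012) were called higher at 12 h than at 6 h, and Hspd1 (-0.85, adjusted p = 0.032) and Dnajb1 (-0.56, adjusted p = 0.025) lower, against 9.28% and 9.57% of all genes. The calls of Hsph1, Hspd1 and Dnajb1 were lost in 2, 5 and 3 of 14 fits that left out 1 library (highest adjusted p = 0.096, 0.25 and 0.16). At equal totals those of Hspd1 (adjusted p = 0.052) and Dnajb1 (0.17) were lost, as with quantile normalization (0.067 and 0.065). In both tables replicate libraries of a group could differ along GC content. Spearman's rho across genes was 0.0417 to 0.62 at 3 h and -0.804 to 0.561 in the later table. With a replicate block and GC trends removed, 78 of the 80 called changes held, all but those of Xbp1 with LPS at 12 h (adjusted p = 0.060) and Hspa1b with IL-10 in LPS at 6 h (0.28). In these bulk samples fewer cells expressing a gene and less RNA per cell cannot be told apart.

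Per kilobase of exon, the levels in the later controls spanned from 0 for Hspb1, 3.72 normalized reads per kb for Hspa1a and 4.27 for Hspa1b to 4999 for P4hb, 5850 for Hspa5 and 8342 for Hsp90ab1. Hsf1 had 41.0 and Hspa8 had 3857. With LPS at 12 h the levels per kb were 955 for Hspa1a, 893 for Hspa1b, 11591 for Hspa5 and 16166 for Hsp90ab1, so that the inducible HSP70 genes stayed below the constitutive Hspa8 at 8201.

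Other genes of both pathways, taken from lists chosen with earlier results known, moved in both directions. Of 52 other ER genes tested at 3 h, 15 were called higher and 7 lower with LPS, and of 53 later 19 and 4 at 6 h and 12 and 6 at 12 h, beside the shares of all genes given above for LPS. At equal library totals these counts were 1 and 36, 2 and 38, and 6 and 26. The list's median changes there were -0.45, -0.73 and -0.55, to be read beside the medians of all genes at equal totals given above. Ppp1r15a (GADD34, the phosphatase subunit that restores translation) rose by 3.30 ± 0.11, 3.98 ± 0.30 and 3.57 ± 0.30 and stayed at 2.72 or more at equal totals. Eif2ak3, the gene of the third ER sensor PERK, fell by 1.67 ± 0.11 at 3 h and by 2.03 ± 0.25 at 6 h. Ddit3 (CHOP) fell by 1.63 ± 0.18 at 3 h and was 3.15 ± 0.31 higher at 12 h, with Atf4 1.51 ± 0.15 higher at 12 h. With IL-10 in LPS, Ppp1r15a changed by -1.74 ± 0.11 at 3 h and -2.22 ± 0.30 at 6 h, and Creb3l2, an ER-bound transcription factor, by 1.78 ± 0.22 at 6 h and 1.20 ± 0.22 at 12 h. The counts of this list with IL-10 in LPS were 1 higher and 2 lower at 3 h, 4 and 5 at 6 h, and 1 and 1 at 12 h.

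Of 40 other heat-shock genes tested at 3 h, 18 were called higher and 6 lower with LPS, and of 41 later 12 and 7 at 6 h and 12 and 6 at 12 h. For both lists, the shares of all genes called on the authors' scale, with LPS and with IL-10 in LPS, are those given above. At equal library totals these were 4 and 22, 2 and 30, and 2 and 21, with median changes of -0.28, -0.75 and -0.66. The J-domain genes Dnaja2 (1.83 ± 0.12) and Dnajb6 (1.26 ± 0.10) led at 3 h, and Dnajb6 was 2.98 ± 0.34 higher at 6 h and 2.07 ± 0.34 at 12 h, each positive at equal totals. Hspa14, a ribosome-linked HSP70, changed by -1.48 ± 0.18 at 6 h and -0.87 ± 0.18 at 12 h. With IL-10 in LPS 0 were called higher and 1 lower at 3 h (Dnajb4, -1.40 ± 0.14), 3 and 6 at 6 h, and 0 and 2 at 12 h. The last pair were Dnajc2, a ribosome-associated J-protein (-1.79 ± 0.28), and Ahsa1, the activator of the HSP90 ATPase (-0.81 ± 0.16), which was also lower at 6 h (-1.23 ± 0.16). All changes in both lists have an adjusted p of at most 0.05.

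Over the 11 group means the genes whose pattern was most like that of Hspa5, among 12095 genes, were Mmadhc, Herc1, Dnajc13, Sec23ip and Tfg (Pearson's r of 0.988 to 0.990). For Hspa1b they were Hspa1a (0.984), Gatad2b, Nfat5, Atp1b3 and Dnase1l3 (0.976 to 0.979). The group means share the control libraries and the scaling of 2 tables, and these values are descriptions without a test.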

How the data were processed

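RNA sequencing of macrophages gave 22 libraries in 11 groups, assigned from the sample titles. Per the labels, RNA was column-purified with a DNase step and made into TruSeq libraries, and TopHat2, DESeq2 and GRCm38 are named, without versions, in the submitters' processing notes. How reads were counted, with which annotation and whether by strand, is not given in those notes or in the labels. Each deposited value is a gene's signal, its read count over a size factor that the authors set for the library. There are 2 tables, normalized separately, so no test crossed them. All values (100% in each library, within 0.01 reads) were whole multiples of a constant, so whole reads were recovered, for edgeR 4.0.16 and DESeq2 1.42.0 as alternatives. Recovered depth was 9337222 to 31772075 reads.

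Every comparison was fitted with limma 3.58.1 (R 4.3.3, eBayes with trend, two-sided) on log2(value + 1) to all groups of a table. Genes entered where 2 or more libraries had 10 or more normalized reads, and p-values were Benjamini-Hochberg adjusted over all of them at 0.05. The fit was run on simulated counts of independent libraries with a fixed spread. They held no replicate or GC effects, so that run does not check the fit for such differences in these libraries. Changes on this scale are understated for weakly expressed genes. Library-by-library values are given for members with a called change of at least 1 on the log2 scale without overlap between libraries, and for Hspa5, Xbp1, Hspa8, Hsp90aa1 and Hsf1. Of the lists of other ER and heat-shock genes, at most 4 genes per list and comparison, those with the smallest p, could be named. The members and lists were chosen with earlier results of these data known. Of the other values given library by library, those of Atf6, Dnajc3, Pdia4, Sdf2l1, Hspe1, Dnajb1 and Edem1 were chosen after their values were seen. Alternatives were a pseudocount of 5, no filter, equal library totals, quantile normalization, edgeR, DESeq2, only the groups compared, a replicate block with and without removal of GC trends, leaving out each library and, added after seeing the data, leaving out all first 12 h libraries together. The 12 h minus 6 h test of the IL-10 effect was also added after seeing the data. GENCODE M21 (GRCm38) gave coordinates, exon lengths and overlaps. RefSeq promoter windows (GRCm38.p6) were searched for motifs on both strands.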

Additional observations from a re-analysis of the deposited data

Results flagged for a closer look

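The effects of 6 h and 12 h of treatment differed for 10 results among these genes by a limma test of the 12 h group against the 6 h group. With LPS alone the log2 difference was 1.12 for Ern1 (adjusted p = 0.0028), -0.80 for Herpud1 (0.022), 2.07 for Hspa1b (0.0035), 2.51 for Hsph1 (3.2e-05), 1.15 for Hsp90aa1 (0.017) and 3.60 for Hspb1 (0.0033), with both 12 h libraries on the same side of both 6 h libraries in each. Hspb1 was tested only because of its LPS 12 h libraries. With both agents the log2 difference was 1.05 for Ern1 (0.0042), 0.77 for Hsph1 (0.012), -0.85 for Hspd1 (0.032) and -0.56 for Dnajb1 (0.025). The effect of IL-10 during LPS differed between 12 h and 6 h for Hsph1, by -1.74 (adjusted p = 0.010). Both times share the later control group, whose harvest time was not given. The log2 differences between times do not use it, but its libraries enter the shared estimate of the spread behind the p-values.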

How the results depend on the processing

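The 41 reversed directions all concern LPS against control. At equal library totals the changes at 3 h became -0.23 for Xbp1, -0.34 for Edem1, -0.18 for Herpud1, -0.27 for Dnajb11, -0.36 for Pdia6, -0.27 for Manf, -0.22 for Hsp90aa1 and -0.10 for Hsp90ab1. At 6 h they became -0.17 for Edem1, -0.24 for Edem2, -0.48 for Sel1l, -0.10 for Herpud1, -0.34 for Dnajb11, -0.26 for Pdia6, -0.30 for Manf, -0.58 for Hspa8 and -0.48 for Dnajb1. At 12 h they became -0.05 for Xbp1, -0.02 for Ern1, -0.21 for Sel1l, -0.14 for Dnajb11, -0.20 for Pdia6 and -0.06 for Dnajb1. With quantile normalization the changes at 3 h became -0.18 for Xbp1, -0.51 for Edem1, -0.22 for Dnajb11, -0.47 for Pdia6, -0.05 for Manf, -0.41 for Hsp90aa1 and -0.45 for Hsp90ab1. At 6 h they became -0.09 for Hspa5, -0.35 for Edem1, -0.48 for Sel1l, -0.08 for Dnajb11, -0.39 for Pdia6 and -1.10 for Hspa8, and at 12 h -0.25 for Hspa5, -0.21 for Sel1l, -0.30 for Pdia6, -0.12 for Hspa8 and -0.26 for Hsp90ab1. These scalings are the cause by construction.

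Counts of members called moved by over 1.5 times under some settings. The share of all genes called was counted only for the main fit. The member counts of this section therefore have no such share beside them, and whether all genes moved alike cannot be read from them. Equal library totals gave 25 for LPS at 3 h (14 as reported), 5 for IL-10 in LPS at 6 h (3), 1 for the 6 h interaction (0), 11 for LPS at 12 h against 6 h (6), 2 for both agents at 12 h against 6 h (4) and 3 for the 12 h minus 6 h IL-10 effect (1). Quantile normalization gave 2 for IL-10 in LPS at 3 h (4), 4 for IL-10 at 12 h (1), 2 for both agents at 12 h against 6 h and 2 for the IL-10 effect between times. DESeq2 gave 1 for IL-10 at 3 h (0), 3 for IL-10 at 12 h, 7 for IL-10 in LPS at 6 h, 4 and 3 for the interaction at 6 h and 12 h (0 each) and 4 for the IL-10 effect between times. A pseudocount of 5 gave 1 for each of these interactions and 2 for that effect. Fits of only the groups compared gave 9 for LPS at 3 h, 13 for IL-10 in LPS at 3 h, 8 for LPS at 12 h (20), 0 for IL-10 at 12 h, 5 and 3 for IL-10 in LPS at 6 h and 12 h (3 and 7) and 1 for both agents at 12 h against 6 h. Without all first 12 h libraries together, a setting chosen after seeing the data, the counts were 0 for IL-10 at 12 h, 4 for IL-10 in LPS at 12 h, 3 for LPS at 12 h against 6 h and 0 for the IL-10 effect between times.

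Leaving out 1 library gave 7 to 17 calls for LPS at 3 h, 0 to 7 for IL-10 at 3 h, 0 to 10 for IL-10 in LPS at 3 h, 0 to 3 for the 3 h interaction, 13 to 20 for LPS at 12 h, 0 to 3 for IL-10 at 12 h, 0 to 8 and 3 to 8 for IL-10 in LPS at 6 h and 12 h, 0 to 9 and 0 to 1 for the interactions at 6 h and 12 h, 3 to 8 for LPS at 12 h against 6 h, 1 to 10 for both agents at 12 h against 6 h and 0 to 3 for the IL-10 effect between times. No direction turned in these fits, and 128 of 1012 such values lost their call.

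The samples share replicate numbers 1 and 2, but the labels do not say that a number marks a shared culture or day. The differences between replicates 2 and 1 correlated between groups at -0.411 to 0.703 in the later table and -0.0507 to 0.273 at 3 h. With a replicate block 79 of 80 called changes held, all but that of Atf6 with IL-10 in LPS at 12 h, and 1 member was called for IL-10 at 3 h. With the replicate block and GC trends removed 78 of 80 held, and the counts were 1 for IL-10 at 3 h, 7 for IL-10 in LPS at 3 h, 2 for the 3 h interaction, 5 for IL-10 at 12 h, 8 for IL-10 in LPS at 6 h, 4 and 2 for the interactions at 6 h and 12 h, 14 for LPS at 12 h against 6 h, 7 for both agents at 12 h against 6 h and 4 for the IL-10 effect between times. The cause of these moves was not tested. With 2 libraries a group, depth limits chiefly Hspb1 and the control levels of Hspa1a and Hspa1b.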
